A study of Mus musculus with 3 samples.

Results

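Lipocalins are small secreted proteins that carry odorants, pheromones and other oily molecules in a barrel-shaped pocket, and 5 of their genes were followed through 3 libraries of nuclei from mouse lacrimal gland. The members, fixed by name, were Obp1a and Obp1b (odorant-binding proteins), Lcn11 (lipocalin 11), Mup4 and Mup5 (major urinary proteins). All 5 were found among the 32285 genes of the count tables, each in 1 row. The tamsulosin library came from mice with dry eye, induced with scopolamine and dry stress, that also received tamsulosin. The scopolamine library came from mice of the same dry eye model without tamsulosin, and the control library from normal mice. Scopolamine blocks muscarinic acetylcholine receptors, through which nerves drive tear secretion, and tamsulosin blocks alpha-1 adrenergic receptors. Strain, sex, age, doses and the number of animals per library are not given in the sources used here, so each group counts as n = 1, and no test between groups was possible. All intervals below are 95% intervals that cover counting error only.

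Lacrimal acinar cells make and store the proteins of tears, and lipocalins are among the most abundant of these in rodents. Odorant-binding proteins were first known from nasal and lacrimal secretions. Major urinary proteins are known best from mouse liver, which releases them into urine as pheromone carriers, while Mup4 has been described in lacrimal and nasal glands and Mup5 in salivary glands of the mouse. Lacrimal gland secretory genes, lipocalins included, differ between the sexes in mice. Nuclei were isolated and counted in droplets with 3′ tags, so a value here is a number of unique molecular identifiers (UMIs), most of them from the end of the transcript. Levels are in CPM: all UMIs of 1 class in 1 library were summed, and a gene's UMIs were scaled to 1e6 of them.

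Filtering left 10864 tamsulosin, 9205 scopolamine and 6780 control nuclei, whose median depths were 3361, 1732 and 2318 UMIs. The libraries shared 22 to 35 cell barcodes in pairs. Xist lay at 1003, 1206 and 1335 CPM in the tamsulosin, scopolamine and control libraries, and none of 4 Y-linked genes exceeded 0.114 CPM in any of them. Clusters were named from marker genes, and acinar-like nuclei were split by Car6, a secreted carbonic anhydrase. Clusters with a Car6 level at least 2-fold that of the acinar-like class made the Car6-high subset, and these also led with Kit. Each library filled its own clusters: of the Car6-high nuclei, cluster 20 held 661 of 682 in the tamsulosin library, cluster 24 held 425 of 442 in the scopolamine library and cluster 0 held 452 of 453 in the control library. Car6-low nuclei numbered 2013, 5676 and 4719, mostly in cluster 13, clusters 17 and 18, and clusters 2 and 3. Acinar-like is partly a remainder class, with 6 to 14 acinar markers raised per cluster. The top 10 genes of clusters 13 and 17 held 0 acinar markers and those of cluster 18 held 1, so their name is uncertain too. Salivary-type genes stood out in the tamsulosin library: Bpifa2 lay at 358 CPM in its Car6-high nuclei, against 0 in scopolamine and 39.6 CPM in control ones. In fibroblast-, endothelial- and immune-like nuclei together Bpifa2 lay at 407, 0 and 30.7 CPM. What this did to the lipocalin values below was not tested, except where Mup5 is given by nucleus.

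The members lie on 3 chromosomes of the mouse genome (GRCm38). Obp1a, at chrX:78085505-78091374 on the minus strand, and Obp1b, at chrX:78186777-78192292 on the plus strand, lie in a group of related genes. Lcn11 lies at chr2:25777017-25780279 on the plus strand. Mup4, at chr4:59956804-59960710, and Mup5, at chr4:61831319-61835233, both on the minus strand, belong to the large Mup cluster. The first coding bases of the paired Obp1 genes are shown because they let the reader see how alike these genes are and how they can still be told apart. Read 5′ to 3′ from GENCODE M21 on GRCm38, they come from chrX:78091278-78091322 on the minus strand and from chrX:78186827-78186874 on the plus strand. Capitals mark the 11 aligned positions at which one gene has another base or no base.
Obp1a: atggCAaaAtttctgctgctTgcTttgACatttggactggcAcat
Obp1b: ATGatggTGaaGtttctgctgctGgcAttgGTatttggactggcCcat
Over whole transcripts, 69.5% of aligned positions were identical between Obp1b and Obp1a. Gm5938, a gene that lies between these on the chromosome, was closer to Obp1a, at 84.7%.

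How far the counts can be credited to 1 gene depends on shared sequence. Of the 50-base words of the Obp1a transcript, 7.20% also occurred in another annotated transcript, and none of those in its last 300 bases, where 3′ tags fall. For Obp1b the shares were 73.5% over the transcript and 43.0% in the last 300 bases, all shared with Gm14743, a neighbour on the X chromosome. Lcn11 shared no such word. Mup4 and Mup5, 91.9% identical to each other, shared 25.9% and 35.5% of the words in their last 300 bases, with each other or with further genes, most of them Mup genes. Obp1b, Mup4 and Mup5 counts are therefore less certain than those of Obp1a and Lcn11, and how the authors' counting assigned shared reads is not given in the sources used here.

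The 80 bases before the RefSeq transcript start are printed for the members with a RefSeq promoter entry, because these genes were higher together between libraries and yet differed between acinar subsets. They are from RefSeq (GRCm38.p6), read 5′ to 3′ along the gene: Obp1a from chrX:78091375-78091454 (minus strand), Obp1b from chrX:78186728-78186807 (plus), Lcn11 from chr2:25776937-25777016 (plus) and Mup4 from chr4:59960668-59960747 (minus). Positions count from the RefSeq start, which for Obp1b and Mup4 lies inside the GENCODE gene interval given above, so these stretches overlap the first bases of that interval and the Mup4 TATAAA lies within it. Capitals mark TATAAA, the core of the TATA box.
Obp1a: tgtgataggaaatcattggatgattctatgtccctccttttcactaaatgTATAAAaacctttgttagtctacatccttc
Obp1b: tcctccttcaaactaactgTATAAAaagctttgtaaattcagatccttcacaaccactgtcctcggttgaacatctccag
Lcn11: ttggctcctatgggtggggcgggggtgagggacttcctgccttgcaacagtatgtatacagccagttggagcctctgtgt
Mup4: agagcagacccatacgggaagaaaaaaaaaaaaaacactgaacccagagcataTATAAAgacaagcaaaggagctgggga
Motifs were searched on both strands of the 300-base window from 250 bases before to 50 bases after the start. TATAAA was present in Obp1a at position -30, in Obp1b at -61 and in Mup4 at -27, and in 13.6% of all 32851 promoters of the table. TTCNNNGAA, bound by STAT factors, was in none of these windows and in 8.30% of all. CCAAT, the CAAT box, was in Obp1a, Obp1b and Lcn11 and in 37.4% of all. These matches overlap no other motif searched and describe letters, not bound sites.

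Obp1a, the member with the most UMIs, filled a large part of every library and was seen in nearly every nucleus of every class. It took 7.65% of the UMIs of all kept tamsulosin nuclei, 6.57% of scopolamine and 1.60% of control ones. In Car6-high acinar-like nuclei Obp1a lay at 105684 CPM in the tamsulosin library, 75850 in scopolamine and 22979 in control. Car6-low nuclei had 58971, 52347 and 14973 CPM of Obp1a in the same order. A pool of fibroblast-, endothelial-, macrophage-, T or NK- and B or plasma-like nuclei, which should not make tear proteins, still had 50557, 33813 and 15223 CPM of Obp1a. It is called the stromal and immune pool here and serves as the background, though free RNA itself was not measured. Car6-high nuclei were 2.09-fold (2.08 to 2.10), 2.24-fold (2.22 to 2.26) and 1.51-fold (1.49 to 1.53) above the pool for Obp1a in the tamsulosin, scopolamine and control libraries. For Car6-low nuclei the Obp1a ratio was 1.17, 1.55 and 0.984 from the summed UMIs. With each nucleus thinned to 1000 UMIs and weighted equally, Car6-low nuclei averaged 64.2, 66.0 and 20.1 Obp1a UMIs, against 71.1, 49.8 and 18.6 in the pool, so the tamsulosin and control directions turned. Within the tamsulosin pool Obp1a ranged widely, with 68478 CPM in endothelial-, 67713 in T or NK-, 62957 in macrophage- and 53366 in B or plasma-like nuclei, most of them above Car6-low nuclei. In the control pool the 43 endothelial-like nuclei, with 4381 Obp1a UMIs, lay at about the level of Car6-high nuclei.

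**Figure D1:**
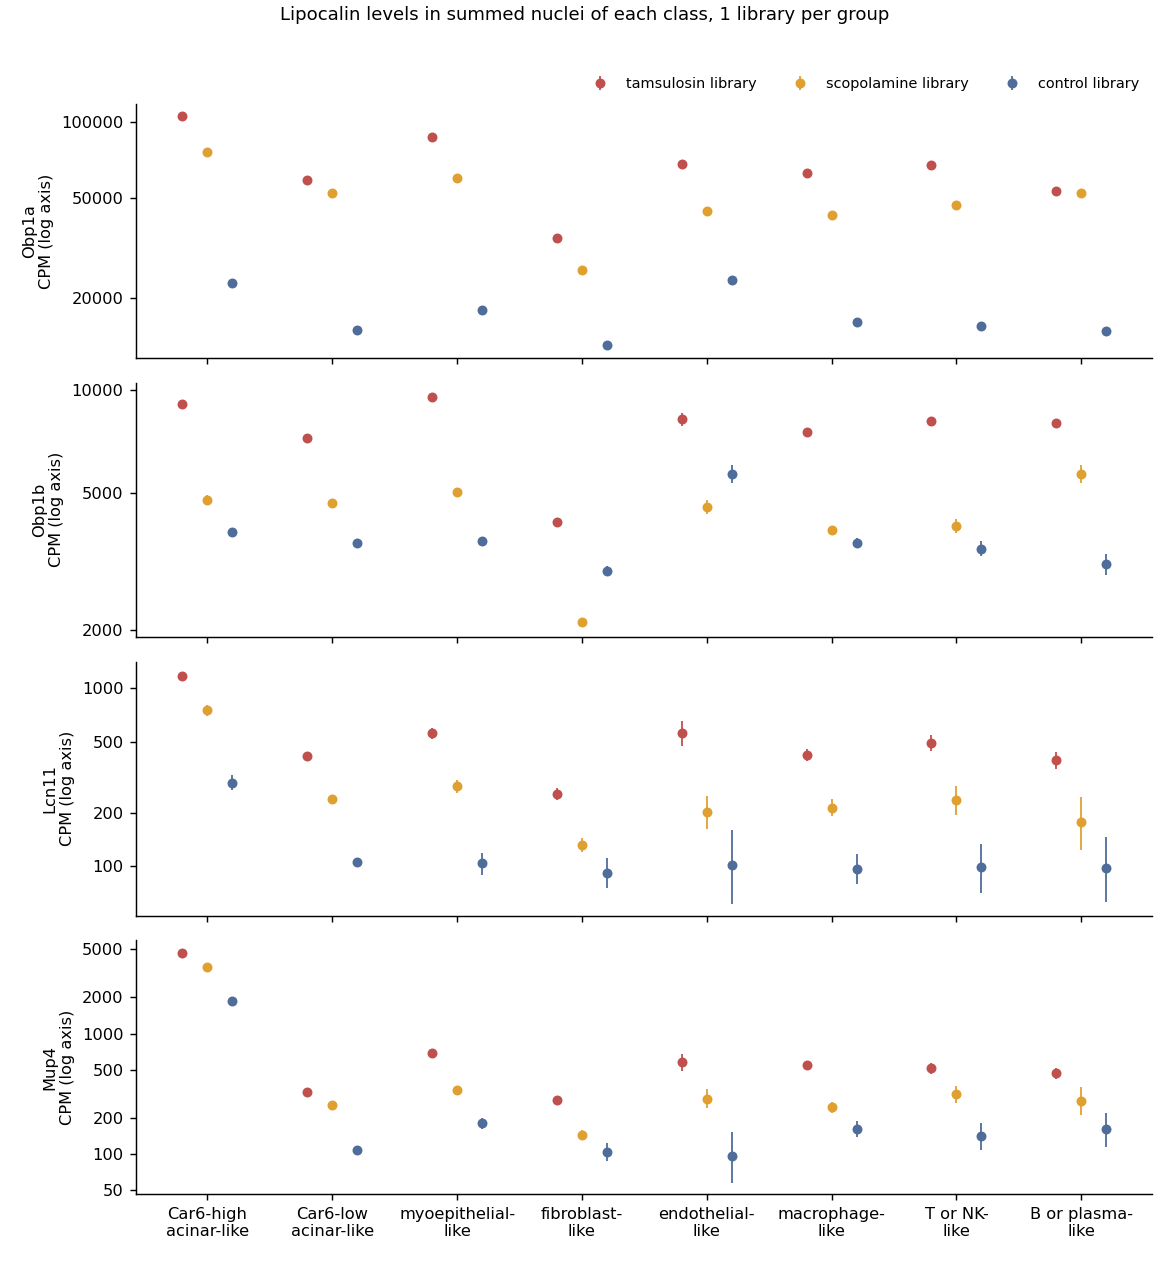
Level of 4 lipocalin genes in CPM (log axis) by nucleus class, with the tamsulosin, scopolamine and control libraries from left to right; points are sums over the nuclei of 1 library and bars are 95% Poisson intervals. Of the classes shown, Mup4 and Lcn11 stand highest in Car6-high acinar-like nuclei in each library. Obp1a and Obp1b are abundant in all of these classes, and Obp1a is lowest in fibroblast-like nuclei of each library. Low-complexity barcodes are not shown.

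Fibroblast-like nuclei had less Obp1a than the rest of the pool, with 34764 CPM in the tamsulosin, 25826 in the scopolamine and 13108 in the control library. Myoepithelial-like nuclei, the contractile cells that wrap acini, had 87037, 60259 and 17923 CPM, above the stromal and immune pool by 1.72, 1.78 and 1.18-fold. The 4 abundant members stood 1.52 to 1.72-fold above the pool in tamsulosin and 1.69 to 1.78-fold in scopolamine myoepithelial-like nuclei, and 1.06 to 1.35-fold in control ones. In duct-like nuclei the Obp1a ratio to the pool was 0.924 in the tamsulosin, 1.04 in the scopolamine and 0.640 in the control library. Barcodes left unnamed for low complexity, with few genes per UMI, had the highest Obp1a of all, at 149074, 190527 and 142662 CPM.

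Obp1b, a paralogue near Obp1a, differed less than Obp1a between the acinar subsets. It lay at 9078 CPM in Car6-high nuclei of the tamsulosin library, 4785 in scopolamine and 3851 in control. Car6-low nuclei had 7220, 4687 and 3571 CPM of Obp1b, and the stromal and immune pool 6262, 2986 and 3416. Low-complexity barcodes, with 213870, 63422 and 4322 Obp1b UMIs, stood above Car6-high nuclei in CPM in each library. The ratio of Car6-high to Car6-low nuclei was 1.26 (1.24 to 1.28), 1.02 (0.991 to 1.05) and 1.08 (1.05 to 1.11), the smallest of the 4 abundant members in each library. The corresponding ratios for the tear proteins Scgb2b2, a secretoglobin, and Mucl2, a mucin-like protein, were 1.02 to 1.37 and 0.966 to 1.29.

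Obp1b stood out when set against Obp1a in the same nuclei. Per 1000 Obp1a UMIs, the stromal and immune pool held 124 Obp1b UMIs in the tamsulosin library, 88.3 in scopolamine and 224 in control. Over 8 groups of nuclei, Car6-low and duct-, myoepithelial-, fibroblast-, endothelial-, macrophage-, T or NK- and B or plasma-like, the values ran from 109 to 149, from 81.8 to 109 and from 202 to 241. The ranges of the control library and the others did not overlap, so in every one of these groups Obp1b made up a larger part of the pair in control. The 8 groups of a library share its free RNA, so they do not count as 8 separate measurements. How often other pairs of genes differ in this way was not tested. Low-complexity barcodes, not among the 8, had 132, 83.9 and 139, so the control value there lay inside the tamsulosin range. Car6-high nuclei lay below the range of the 8 groups in their own library each time, with 85.9, 63.1 and 168 Obp1b UMIs per 1000 of Obp1a. For Mup4 they lay above it, with 44.2, 47.0 and 81.4 UMIs, against ranges of 5.55 to 8.88, 4.85 to 7.45 and 4.11 to 10.7. Tamsulosin salivary-like nuclei, also outside the 8, had 15.4 Mup4 UMIs per 1000 of Obp1a. Lcn11 had 10.99, 9.85 and 12.8 UMIs per 1000 of Obp1a in Car6-high nuclei, against ranges of 6.40 to 8.13, 3.38 to 5.13 and 4.34 to 7.09.

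**Figure D2:**
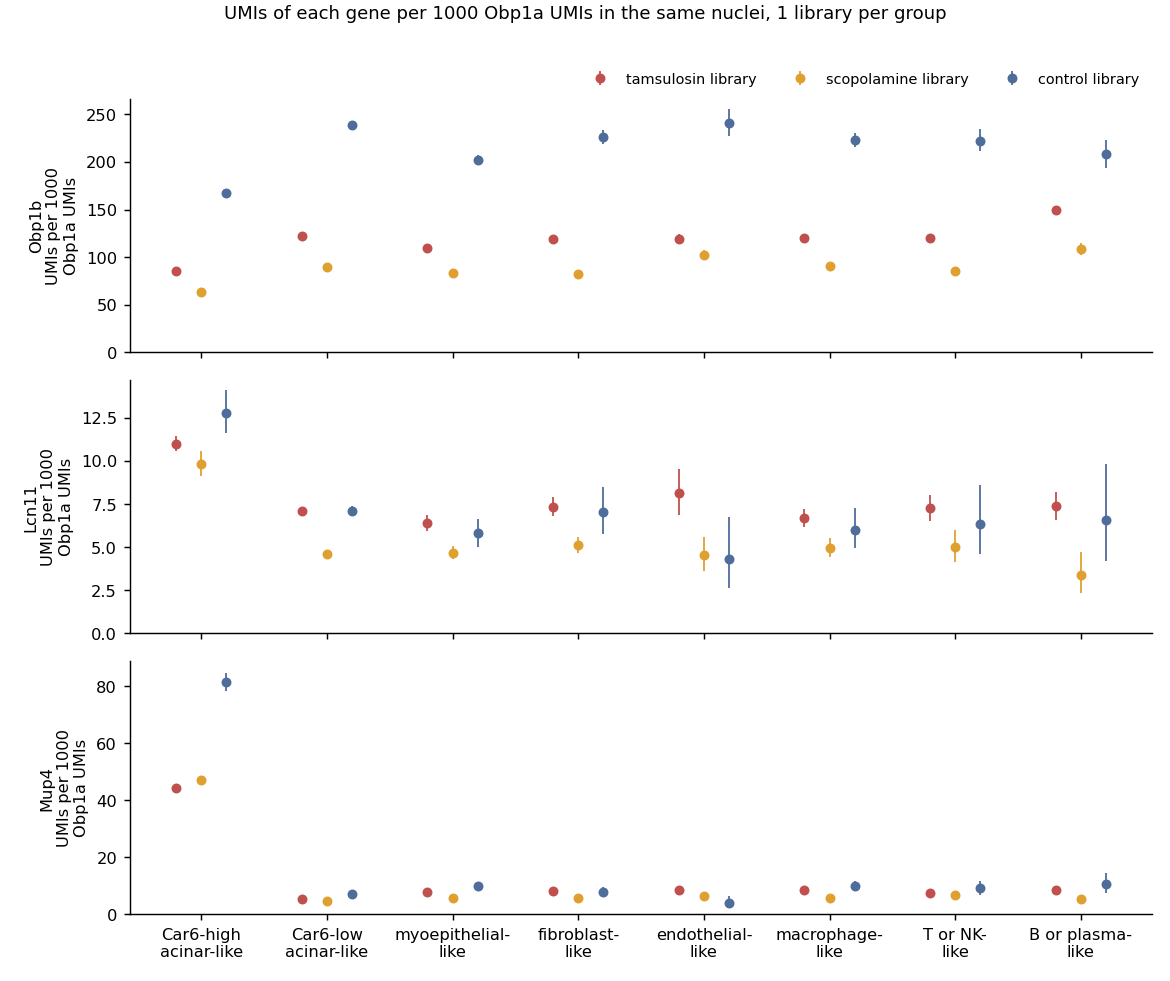
UMIs of Obp1b, Lcn11 and Mup4 per 1000 Obp1a UMIs of the same nuclei, by class, with the tamsulosin, scopolamine and control libraries from left to right; bars are 95% Poisson intervals of the numerator. Within a library the ratios are similar in most classes, and Car6-high nuclei depart upward for Mup4 and Lcn11 and downward for Obp1b.

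Related genes beside the Obp1 pair did not move as one. Gm5938 and Gm14743 were added for their position after their values had been seen. Gm5938, also listed as OBP6, lay at 29481 CPM in tamsulosin acinar-like nuclei, 23269 in scopolamine and 17081 in control. Gm14743, which shares most words of Obp1b, lay at 2540, 1307 and 4058 CPM. In acinar-like nuclei the scopolamine over control ratio was 3.47 for Obp1a, 1.31 for Obp1b, 1.36 for Gm5938 and 0.322 (0.317 to 0.327) for Gm14743. In these nuclei Gm14743 was thus lower with scopolamine while its neighbours were higher. In the stromal and immune pool the same ratio was 2.22 for Obp1a, 0.874 for Obp1b, 0.978 for Gm5938 and 0.232 for Gm14743. Only Obp1a was higher with scopolamine there.

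Lcn11, a less studied lipocalin, was higher in the Car6-high subset in all 3 libraries. It lay at 1161 CPM in Car6-high tamsulosin nuclei, 747 in scopolamine and 294 in control. In Car6-low nuclei Lcn11 had 418, 240 and 106 CPM, and in the stromal and immune pool 362, 166 and 95.8. Low-complexity barcodes held 12013, 3162 and 104 Lcn11 UMIs. Their CPM exceeded that of Car6-high nuclei in the scopolamine and control libraries. The ratio of Car6-high to Car6-low nuclei was 2.78 (2.65 to 2.92), 3.12 (2.87 to 3.38) and 2.77 (2.49 to 3.08). At an equal depth of 1000 UMIs per nucleus, 56.7% (52.9 to 60.5) of Car6-high tamsulosin nuclei had an Lcn11 UMI, 45.9% (41.2 to 50.7) of scopolamine and 23.4% (19.6 to 27.6) of control ones. Car6-low nuclei had 34.1, 23.6 and 9.87% and the stromal and immune pool 36.7, 19.4 and 9.95%, so the share in Car6-low nuclei did not exceed that background by more than a few points. With nuclei split by a Car6 UMI instead of by cluster, the Lcn11 ratio was 1.76, 1.65 and 1.34.

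Mup4 carried the largest difference between acinar subsets of any member. Car6-high nuclei had 4672 CPM (4580 to 4765) of Mup4 in the tamsulosin library, 3568 (3449 to 3690) in scopolamine and 1871 (1800 to 1943) in control. Car6-low nuclei had 328, 254 and 107 CPM. Mup4 was thus 14.3-fold (13.8 to 14.8), 14.1-fold (13.4 to 14.7) and 17.5-fold (16.5 to 18.5) higher in the Car6-high subset. Against the stromal and immune pool, at 420, 197 and 133 CPM, the Car6-high ratios were 11.1, 18.1 and 14.1, whereas Car6-low nuclei stood at 0.780, 1.29 and 0.807 times the pool. Mup4 also exceeded the pool in low-complexity barcodes, at 1535, 966 and 1056 CPM, and in tamsulosin salivary-like nuclei, described with Mup5. The members were kept out of the genes used for clustering, so Mup4 did not help to form the subset.

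Set against all genes at a mean of 20 CPM or more, Mup4 ranked 12 of 5130 for its Car6-high to Car6-low ratio in the tamsulosin library, 13 of 5468 in scopolamine and 2 of 5901 in control. All 4 members that could be ranked were at least 1.5-fold above the median gene in tamsulosin nuclei, where 12.5% of genes were. In scopolamine nuclei 3 of 4 were, against 7.75% of genes, and in control nuclei 3 of 4, against 4.88%; Obp1b did not reach it in either. None of the 4 was 1.5-fold below the median gene, where 6.43, 6.14 and 2.42% of genes were. Subset nuclei were few, yet they held much of the Mup4 RNA: 69.4% (68.6 to 70.2) of the Mup4 UMIs of tamsulosin acinar-like nuclei came from the Car6-high 25.3% of these nuclei. In the scopolamine library 44.3% (43.2 to 45.4) came from 7.22% of nuclei, and in control 53.1% (51.7 to 54.5) came from 8.76%.

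**Figure D3:**
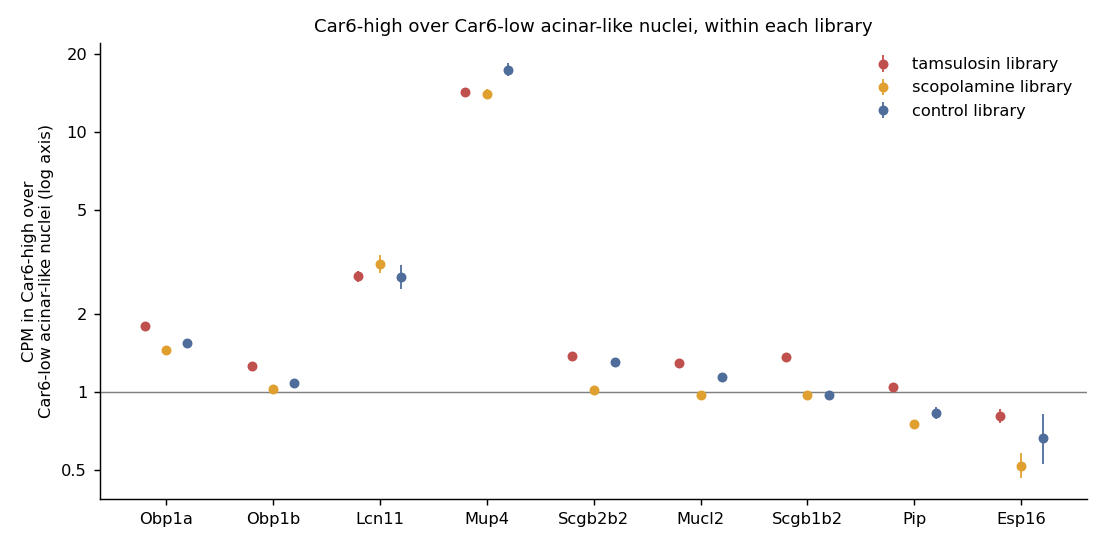
Ratio of CPM in Car6-high over Car6-low acinar-like nuclei (log axis) for 4 lipocalin genes and 5 other tear protein genes, within the tamsulosin, scopolamine and control libraries from left to right; bars are 95% conditional binomial intervals. Mup4 lies between 14.1 and 17.5, Lcn11 near 3, and the others between 0.518 and 1.79.

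The Mup4 ratio rested on a part of the Car6-high nuclei and was sensitive to how nuclei were weighted. At 1000 UMIs per nucleus, Car6-high tamsulosin nuclei had a median of 2 Mup4 UMIs with a highest value of 94, scopolamine ones a median of 1 and a highest of 47, and control ones a median of 1 and a highest of 20. The nuclei with 5 or more Mup4 UMIs made up 24.0, 26.8 and 13.9% of the Car6-high subset, against 0.348, 0.760 and 0.0636% of Car6-low nuclei. With every nucleus given equal weight in this way, the Car6-high to Car6-low ratio was 9.0 in the tamsulosin, 8.37 in the scopolamine and 13.4 in the control library. With at least 1600 UMIs per nucleus it was 14.9, 28.3 and 16.5. In that setting the scopolamine library had 305 Car6-high and 2123 Car6-low nuclei, instead of 442 and 5676. In each setting tried the ratio stayed above 4 in every library.

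Shares of nuclei told the same contrast. At 1000 UMIs, 70.2% (66.6 to 73.7) of Car6-high tamsulosin nuclei had a Mup4 UMI, 67.3% (62.7 to 71.6) of scopolamine and 58.1% (53.4 to 62.7) of control ones. Car6-low nuclei had 30.4, 26.0 and 13.1%, and the stromal and immune pool 40.5, 23.3 and 14.3%. Before thinning, the shares were 90.2, 75.3 and 73.1% in Car6-high nuclei, with median depths of 2556, 1953 and 2626 UMIs, and 75.7, 41.5 and 31.1% in the pool, with medians of 2741, 2047 and 2429 UMIs.

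Mup4 also followed Car6 when acinar-like nuclei of both subsets were pooled and grouped by their own Car6 UMIs. Car6 lay at 7709, 8390 and 6766 CPM in Car6-high nuclei of the tamsulosin, scopolamine and control libraries, against 458, 529 and 400 in Car6-low ones. The steps of Car6 are therefore not separate from the split by cluster, and a trend within each subset was not tested. In acinar-like nuclei thinned to 1000 UMIs, those with no Car6 UMI had 350 CPM (317 to 384) of Mup4 in the tamsulosin library, 233 (214 to 252) in scopolamine and 129 (116 to 142) in control. Nuclei with 1 Car6 UMI had 512, 390 and 156 CPM, and those with 3 to 5 had 1488, 927 and 968. Nuclei with 6 or more Car6 UMIs had 6302 CPM (6032 to 6581), 6137 (5869 to 6413) and 2387 (2211 to 2574) of Mup4, from 325, 322 and 284 nuclei. Mup4 was higher at each step of Car6 in each library. Lcn11 stood at 1551, 1012 and 320 CPM with 6 or more Car6 UMIs and at 438, 248 and 108 CPM with none. Obp1a stood at 123058, 90398 and 26856 CPM with 6 or more, and at 62781, 57794 and 18890 CPM with none. Split by the presence of a Car6 UMI alone, the Mup4 ratio was 5.76, 5.02 and 4.33, smaller than by cluster.

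**Figure D4:**
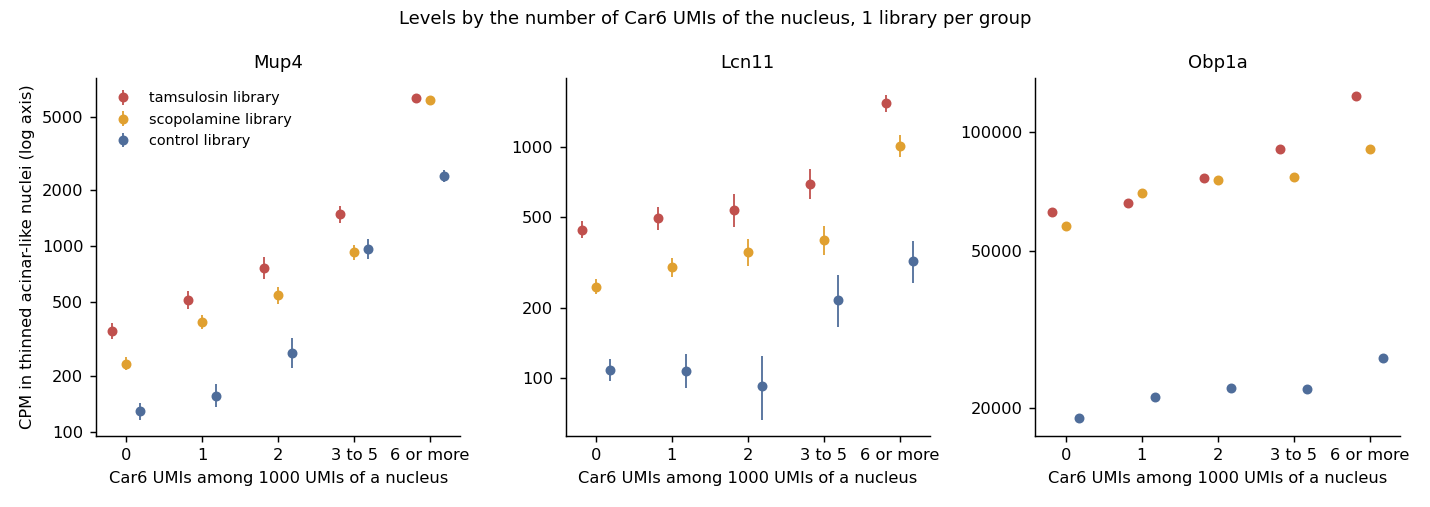
Level of Mup4, Lcn11 and Obp1a in CPM (log axis) in acinar-like nuclei thinned to 1000 UMIs, by their number of Car6 UMIs, with the tamsulosin, scopolamine and control libraries from left to right; bars are 95% Poisson intervals. Mup4 is higher at each step of Car6 in all 3 libraries, and Lcn11 and Obp1a are highest at 6 or more Car6 UMIs.

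Mup5, known from salivary glands, was rare. It had 614 UMIs in all kept tamsulosin nuclei (12.2 CPM), 108 in scopolamine (3.33 CPM) and 2 in control (0.0632 CPM). Salivary-like nuclei, 214 in the tamsulosin library and led by the salivary genes Bpifa2, Smr3a and Amy1, had 130 Mup5 UMIs, or 195 CPM (163 to 231). That was 31.2-fold (21.5 to 46.2) above the 6.25 CPM of the stromal and immune pool of the same library. At 1000 UMIs, 11.2% (7.32 to 16.2) of these nuclei had a Mup5 UMI, against 1.09% of the pool, at median depths of 2233 and 2741 UMIs. None of 37 control salivary-like nuclei had one, which allows a share of up to 8.11%, and the scopolamine library had no such nuclei. The same tamsulosin salivary-like nuclei had 1146 CPM of Mup4, 2.73-fold (2.51 to 2.96) above the pool. Since Mup4 and Mup5 share sequence, some UMIs may be credited to the wrong gene.

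Much of the Mup5 count came from few nuclei. In tamsulosin salivary-like nuclei 5 nuclei held 61 of the 130 UMIs. Low-complexity barcodes of that library held 299 Mup5 UMIs in 71 barcodes, 148 of them in 1, whereas duct-like nuclei held 55 spread over 49 nuclei. Car6-high acinar-like nuclei held 43 there, against 39 in the more numerous Car6-low nuclei, 20.5 and 2.96 CPM. In the scopolamine library 46 UMIs came from myoepithelial-like nuclei, 45 of them from 1 nucleus, so the 23.3 CPM of that class stand for 1 nucleus. Car6-high nuclei of that library held 13 Mup5 UMIs, 9 of them in 1 nucleus. The control library had 1 UMI in a Car6-low and 1 in a myoepithelial-like nucleus.

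Between libraries the abundant members were higher with scopolamine than in control in acinar-like nuclei. Obp1a had 53605 CPM in scopolamine nuclei, against 15461 in control, a ratio of 3.47 (3.45 to 3.48). Lcn11 had 267 CPM, against 118, a ratio of 2.27 (2.17 to 2.38), and Mup4 431 CPM, against 215, a ratio of 2.01 (1.94 to 2.08). For Obp1b the ratio was 1.31 (1.30 to 1.32). The median gene of the class stood at 0.819, and relative to it all 4 members were at least 1.5-fold higher, against 7.17% of 5718 genes. None of the 4 was as much lower, against 3.66% of genes.

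The direction was shared by nuclei that should not make these proteins. In the stromal and immune pool the scopolamine over control ratio was 2.22 (2.20 to 2.24) for Obp1a, 1.74 (1.53 to 1.98) for Lcn11 and 1.48 (1.32 to 1.66) for Mup4. For Obp1b it was 0.874 (0.854 to 0.895), below 1, whereas acinar-like nuclei stood above 1. The classes of the pool differed for Obp1b, with fibroblast-like nuclei at 0.713 and macrophage- and T or NK-like nuclei above 1. When pool nuclei were thinned to 1000 UMIs and weighted equally, they averaged 4.39 Obp1b UMIs in scopolamine and 4.13 in control. The acinar-like ratios exceeded those of the summed pool by 1.31 to 1.56-fold. How far this excess reflects the make-up of the pool, which differed between libraries, was not tested. Fibroblast-like nuclei, low in Obp1a, gave 92483 of its 211026 Obp1a UMIs in scopolamine and 15609 of 47660 in control. Thinned to 1000 UMIs and weighted equally, pool nuclei averaged 49.8 Obp1a UMIs in scopolamine and 18.6 in control, against 66.0 and 20.1 in Car6-low nuclei. How much of the acinar-like difference is free RNA was not tested, since empty droplets were not analysed here. Other tear proteins had ratios of the same order in acinar-like nuclei: 3.93 for Scgb2b2, 4.72 for Scgb1b2, 3.39 for Mucl2, 3.0 for Pip and 7.52 for Esp16.

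**Figure D5:**
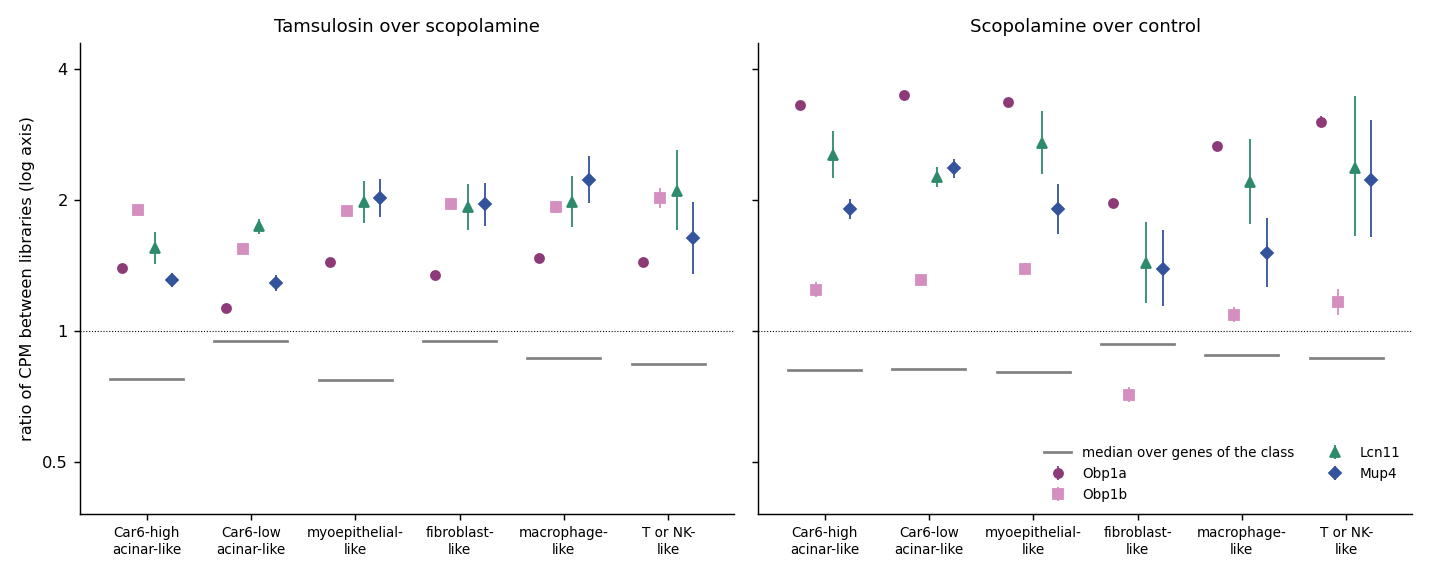
Ratio of CPM between libraries (log axis) for 4 lipocalin genes by nucleus class, tamsulosin over scopolamine on the left and scopolamine over control on the right; bars are 95% conditional binomial intervals and grey lines the median over genes of the class. The 4 genes lie above the median line in each class and contrast shown, except Obp1b in fibroblast-like nuclei at 0.713 for scopolamine over control.

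The tamsulosin library stood higher again than the scopolamine library for each member. In acinar-like nuclei Obp1a had 65382 CPM with tamsulosin, against 53605 with scopolamine alone, a ratio of 1.22 (1.22 to 1.22). The ratio was 1.59 (1.58 to 1.61) for Obp1b, 1.95 (1.88 to 2.02) for Lcn11 and 2.14 (2.08 to 2.20) for Mup4. Relative to a median gene at 0.922, 3 of 4 members were at least 1.5-fold higher, against 2.76% of genes, Obp1a being the exception, and none was as much lower, against 0.407% of genes. In the stromal and immune pool the ratios were 1.5, 2.10, 2.18 and 2.14 for Obp1a, Obp1b, Lcn11 and Mup4, close to the acinar-like value for Mup4 and above it for the others. Tamsulosin over control, which shares a library with each of the other contrasts, gave 4.23, 2.08, 4.42 and 4.31 for these genes. All 4 were at least 1.5-fold above the median gene, against 8.94% of genes, and none as much below, against 3.69%.

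For Mup4 the tamsulosin over scopolamine ratio depended on which acinar-like nuclei were counted. It was 2.14 over the whole class but 1.31 (1.26 to 1.36) within Car6-high and 1.29 (1.24 to 1.35) within Car6-low nuclei. The Car6-high subset made up 25.3% of tamsulosin and 7.22% of scopolamine acinar-like nuclei. Barcodes set aside as low-complexity numbered 2839 in the tamsulosin and 510 in the scopolamine library, and their part in that share was not tested. For Obp1a the ratio was 1.39 within Car6-high and 1.13 within Car6-low nuclei, and for Lcn11 1.55 and 1.74. For scopolamine over control, where the Car6-high share was 7.22 and 8.76%, the Mup4 ratio was 1.91 and 2.37 within the subsets.

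Other lipocalins were scarce. Of 50 genes on a list of lipocalins, 45 were among the counted genes, 23 had no UMI in any class of at least 30 nuclei and 10 reached 5 CPM in 1 or more. Beyond the 5 members these were Mup6, Lcn2, Apod, Lcn3 and Mup7, and the last 2 did so through 1 UMI each. Mup6, another major urinary protein, lay at 180 CPM in Car6-high tamsulosin nuclei, 283 in scopolamine and 215 in control, and at 94.4, 92.2 and 77.5 CPM in Car6-low nuclei. Its level over all kept nuclei was 48.1, 79.6 and 78.8 CPM, so Mup6 was not higher in the tamsulosin library as Mup4 was. Lcn2, which binds bacterial iron carriers, was led by myoepithelial-like nuclei at 79.2, 47.7 and 9.35 CPM, from 104, 94 and 18 UMIs. Apod, a lipid carrier, was led by fibroblast-like nuclei at 89.2, 49.4 and 102 CPM.

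Secreted tear proteins were read from a list of 30 genes. For scopolamine over control in acinar-like nuclei, 13 of 19 measured genes were at least 1.5-fold above the median gene and 2 below. Of all genes, 7.17% were as much above and 3.66% as much below. The median log2 of the list was 1.60 relative to all genes. For tamsulosin over scopolamine 10 of 20 were above and none below, against 2.76 and 0.407% of all genes, with a median of 0.62. For tamsulosin over control 18 of 20 were above and 1 below, against 8.94 and 3.69% of all genes, with a median of 2.60. For Car6-high over Car6-low nuclei, 11 of 21 were above and 2 below in the tamsulosin, 5 of 20 above and 5 below in the scopolamine, and 3 of 19 above and 1 below in the control library, with medians of 0.74, -0.04 and 0.11. Over all genes, 12.5, 7.75 and 4.88% were above and 6.43, 6.14 and 2.42% below. Lyz2, a lysozyme, reached only 6.03 CPM over all kept tamsulosin nuclei, 4.38 in scopolamine and 1.96 in control.

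Candidate regulators, known for Mup genes in liver or for sex differences in exocrine glands, were read from a list of 17 genes. Between 9 and 12 of them reached a mean of 20 CPM in the subsets. None of 9 was at least 1.5-fold above the median gene in Car6-high tamsulosin nuclei, and 1 of 12 was in scopolamine and in control, Socs2 in both, shares near the 7.75 and 4.88% of all genes. As much below the median gene were Prlr in the tamsulosin, Prlr and Foxa1 in the scopolamine and Foxa1 in the control library. Of all genes, 6.43, 6.14 and 2.42% were as much below. Socs2, which damps growth hormone signals, had 24.8, 35.6 and 36.8 CPM in Car6-high nuclei, against 3.72, 5.28 and 11.7 CPM in Car6-low ones, a ratio of 6.67 (4.43 to 10.1), 6.75 (4.41 to 10.1) and 3.15 (2.29 to 4.25). Prlr, the prolactin receptor, ran the other way, with 67.7, 83.9 and 121 CPM in Car6-high and 220, 226 and 189 CPM in Car6-low nuclei. For the library contrasts, 1 of 12 regulators, Thra, was above the median gene by that fold for scopolamine over control, a share near the 7.17% of all genes, and none of 11 for tamsulosin over scopolamine. Cish, another damper of cytokine signals, was as much below it for scopolamine over control, as were 3.66% of all genes.

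The genes most like each member were found from log2 levels over 18 sums, 6 classes in each of the 3 libraries, which share their library's depth and free RNA. Obp1a was most like Mucl2 (Pearson r = 0.998), Scgb2b2 (0.997), Scgb2b24 (0.992), Scgb1b2 (0.991) and Pip (0.964), all tear protein genes. Lcn11 was most like Gm1553 (0.994), Scgb2b20 (0.983), Pip (0.982), Scgb1b20 (0.977) and Mucl2 (0.970). Mup4 was most like Lcn11 (0.960), Gm1553 (0.949), Calr (0.945), Pip (0.932) and Obp1a (0.924). Obp1b differed, with its neighbour Gm5938 (0.960) followed by the ribosomal protein genes Rpl41, Rpl13a, Rpl7 and Rps25 (0.935 to 0.939). Mup5 was too low to be compared.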

How the data were processed

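For each of 3 libraries the authors deposited a matrix of raw counts, in UMIs, made with Cell Ranger 5.0.0 on mm10, per the submitters' processing notes. The annotation and the handling of intronic reads are not given in the sources used here. The protocol text also mentions a sort of red fluorescent nuclei, and whether it applied to these libraries is not stated. Total counts were 57969348 (tamsulosin), 35237256 (scopolamine) and 33500727 (control), and the lowest totals of a barcode were 1534, 967 and 1492, so empty droplets could not be used to measure free RNA.

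Nuclei with at least 500 UMIs, 300 genes and at most 5% mitochondrial UMIs were kept. Scrublet, run in scanpy 1.11.5, called 1, 0 and 0 doublets, so 1156, 801 and 414 top-scoring nuclei were dropped instead, a rate of 0.8% per 1000. Clustering used 2000 variable genes without the 5 members, 30 components, 15 neighbours and Leiden resolution 1.0 (igraph 0.11.9), and gave 25 clusters. Marker lists named them, with thresholds set after the clusters had been seen. Duct-like nuclei, with 2 clusters that had more leading markers of another class than their own, were set between libraries only in the search for genes most like each member and in the ranges per 1000 Obp1a UMIs. Fibroblast-like nuclei had the same fault (0 own markers and 1 of another class among the top 10 genes) and were compared as the single cluster 6. Counts were summed by class and library. CPM carry Poisson, shares Clopper-Pearson and ratios conditional binomial intervals, at 95%. Zeros were read against 3 counts. Log2 ratios used a pseudocount of 5 CPM, relative to the median gene among those averaging 20 CPM or more. The code was checked on simulated counts. Members and lists were chosen with earlier results of these data known. Named genes were the members, listed lipocalins at 5 CPM or more, the 5 genes most like each member and 6 tear protein genes. The other software was Python 3.11.15, numpy 2.4.6, scipy 1.17.1, pandas 2.3.3 and Biopython 1.88. 1 gene of the regulator list is not reported here.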

Additional observations from a re-analysis of the deposited data

Results flagged for a closer look

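Obp1b ran in opposite directions between classes for scopolamine over control. The ratio was 0.713 (0.685 to 0.742) in fibroblast-like nuclei, cluster 6, with 2113 CPM in the scopolamine and 2964 in the control library. It was 1.31 in acinar-like, 1.39 in myoepithelial-like, 1.09 in macrophage-like and 1.16 in T or NK-like nuclei. The difference between the classes was not tested, since each group is 1 library. The fibroblast-like ratio rests on 7568 and 3529 UMIs, and the top 10 genes of that cluster held 0 fibroblast markers and 1 of another class, so its name is uncertain. In the same fibroblast-like nuclei the ratio was 1.97 for Obp1a, 1.43 for Lcn11 and 1.39 for Mup4, each lower than in acinar-like nuclei.

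Mup5 ran in opposite directions for tamsulosin over scopolamine. The ratio was 0.261 (0.106 to 0.558) in myoepithelial-like nuclei, 3.08 (2.02 to 4.83) in acinar-like and 13.6 (2.07 to 576) in macrophage-like nuclei. The first rests on 8 against 46 UMIs, of which 45 were in 1 scopolamine nucleus, and the last on 14 against 1 UMI. The difference between the classes was not tested.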

How the results depend on the processing

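No paired analysis was possible because each group is 1 library. Leaving out a replicate was not possible for the same reason. The Obp1a ratio of scopolamine over control in acinar-like nuclei (3.47) was 2.81 with at least 1600 UMIs, 3.52 with doublets kept, 3.44 at Leiden resolution 2.0, 3.59 with the members used for clustering, 3.27 after thinning, 4.72 with low-complexity barcodes counted as acinar-like, 4.25 without the 50 most abundant genes, 4.23 over the class median and 4.12 in all kept nuclei. For tamsulosin over scopolamine (1.22) the same settings gave 1.40, 1.21, 1.22, 1.18, 1.12, 1.28, 1.32, 1.32 and 1.17. With at least 1600 UMIs there were 2428 scopolamine acinar-like nuclei instead of 6118, and 4503 control ones instead of 5172.

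The Mup4 ratio of Car6-high over Car6-low nuclei is given for the tamsulosin, scopolamine and control libraries in turn. It was 14.9, 28.3 and 16.5 with at least 1600 UMIs, 13.7, 14.4 and 15.6 with doublets kept, and 16.3, 15.9 and 17.7 at resolution 2.0. With the members used for clustering it was 17.2, 17.1 and 18.9, after thinning 9.0, 8.37 and 13.4, and without the 50 most abundant genes 17.4, 14.5 and 17.9. Over the median gene it was 18.4, 14.9 and 18.3, and by presence of a Car6 UMI 5.76, 5.02 and 4.33. A 3-fold Car6 threshold gave the reported values.

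The Obp1b ratio of Car6-high over Car6-low control nuclei changed direction after thinning, to 0.878. In the scopolamine library, where it was 1.02 with an interval that included 1, it was 0.794 (0.759 to 0.829) after thinning. In the tamsulosin library it was 1.24 after thinning. Apart from the control reversal and the Obp1a and Mup4 ratios given setting by setting above, 98 values were counted as moved and 42 were not. Ratios among the 98 left the interval of the reported ratio, and the interval of the new ratio was not taken into account. Some of these pairs of intervals overlapped. For Lcn11, tamsulosin over scopolamine in acinar-like nuclei was 1.86 (1.74 to 1.99) after thinning, against 1.95 (1.88 to 2.02). The shares of genes given next are also among the 98 but carry no interval. With no filter on low values, the share of genes at least 1.5-fold higher was 2.43% for scopolamine over control, 0.672% for tamsulosin over scopolamine and 3.34% for tamsulosin over control, and the share as much lower was 4.53, 0.834 and 7.60%. Depth limits Mup5, and each group being 1 library limits every comparison between libraries.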
